A study of Bos taurus with 6 samples.

Results

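The heat shock proteins and J-domain chaperones were followed in intramuscular fat (IMF) of Qinchuan cattle, a Chinese beef breed. Members were the rows of the mRNA count table with an HSPA, HSPB, HSPD, HSPE or HSPH symbol followed by a digit, a symbol that starts with HSP90, or a DNAJA, DNAJB or DNAJC symbol followed by a digit, with HSPA5 left out. The rule found 68 members among the 25444 genes of the table, 25 of them heat shock proteins (HSP symbols) and 43 J-domain proteins (DNAJ symbols). Of the 68, 65 had at least 1 count, 59 had at least 20 counts over both libraries, and 3 (DNAJB7, DNAJC5B and DNAJC22) had 0 counts in both.

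The study compared castrated males, called steers here, with intact males, called bulls. Calves left their dams at 3 months, castration was done at 6 months in the steer group, and tissue was taken at 24 months from both. Each group had 1 pooled mRNA library, for which the sample labels give 3 animals and the design text gives 6. With 1 library per group no test of castration exists, so that every call and interval compares these 2 libraries and covers counting error only.

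Molecular chaperones bind unfolded or partly folded proteins and keep them from clumping. HSP70 proteins do so in cycles of ATP binding and hydrolysis, which J-domain proteins start by stimulating the ATPase and nucleotide exchange factors end by releasing ADP. HSP90 acts later on kinases and steroid receptors, small heat shock proteins hold unfolded proteins without ATP, and HSPD1 with HSPE1 forms the folding chamber of mitochondria. Under heat or other stress, heat shock factor 1 (HSF1) induces many of these genes.

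The steer library held 12677375 counts and the bull library 9868415. Size factors by the median of ratios were 1.043 for the steer library and 0.959 for the bull library, and a log2 ratio is log2 of scaled counts plus 0.5 in steers over the same in bulls. A gene was called higher or lower where the ratio passed 2-fold and the adjusted p of an exact binomial test of its pair of counts (two-sided, Benjamini-Hochberg over all 17752 genes with a count) was under 0.05. Intervals of log2 ratios are 95% Clopper-Pearson intervals, and those of quotients of gene pairs are 95% exact conditional intervals of an odds ratio. Scaling by total counts in place of size factors moved the median of all genes to -0.23, so signs near 0 rest on the scaling.

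The libraries differed in their cell type markers. Of 14 genes of fibroblasts and matrix, 5 were called higher in steers and 0 lower, with summed levels of 150000 and 91200 cpm in steers and bulls, where cpm is a count divided by the library's total and multiplied by 1000000. The 19 skeletal muscle genes held 3630 and 7100 cpm, with 1 called higher and 5 lower, and the 12 myeloid genes held 2640 and 8680 cpm, with 10 called lower. For T lymphocytes 13 of 14 genes were called lower (16.8 and 137 cpm), and for B lymphocytes 4 of the 7 counted were (3.0 and 19.1 cpm). The 16 adipocyte genes held 6590 and 6380 cpm, with 3 called higher and 1 lower, and of 11 endothelial genes (911 and 1080 cpm) 3 had an interval above 0 and 4 below. Of 6 counted epithelial genes 4 were called higher (27.5 and 5.47 cpm), as was 1 of 4 counted erythroid genes (3.16 and 0.811 cpm). Immediate early genes, which respond within minutes to handling and stress, held 2000 and 3870 cpm, with 7 of 17 called lower. The part of these differences in the chaperone values was not tested. In bulk tissue, fewer cells of a type and less RNA per cell cannot be told apart.

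The library labelled castrated also held transcripts of male germ cells. In a list of 43 spermatid genes, which was written after the counts were seen, 25 genes were called higher in steers and 0 lower, and 27 had counts in steers and 0 in bulls. The 43 genes together held 2219 counts in steers and 735 in bulls, or 175 and 74.5 cpm. PRM1, a protamine that packs sperm DNA, had 328 counts in steers against 0 in bulls, and TNP1, a transition protein of the same process, had 29 and 0. ODF1, a structural protein of the sperm tail, had 53 and 0, and GAPDHS, a glycolytic enzyme of sperm, had 52 and 0.

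The 5 spermatid genes with at least 10 counts in bulls (ODF2, PGK2, SPATA6, DKKL1 and TEKT2) held 988 and 710 of these counts. The bull library was thus not free of the listed transcripts, though most of its counts came from these 5 genes. The other 38 genes held 1231 counts in steers and 25 in bulls, or 97.1 and 2.53 cpm. PRM3 and SPACA3 were at 0 in both libraries. Spermatocyte genes were near 0 in both, with 24 and 3 counts over 14 genes and 1 called higher (SYCP3, 8 and 0). Of 13 Leydig and Sertoli cell genes (203 and 49 counts) 3 were called higher, while CYP11A1, HSD3B1 and HSD17B3 were at 0 in both. Those called were LHCGR (119 and 20 counts), CYP17A1 (34 and 7) and INHBB (30 and 6). The part of these transcripts in the chaperone results was not tested, and the counts over members are given with and without those known for expression in male germ cells.

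**Figure D1:**
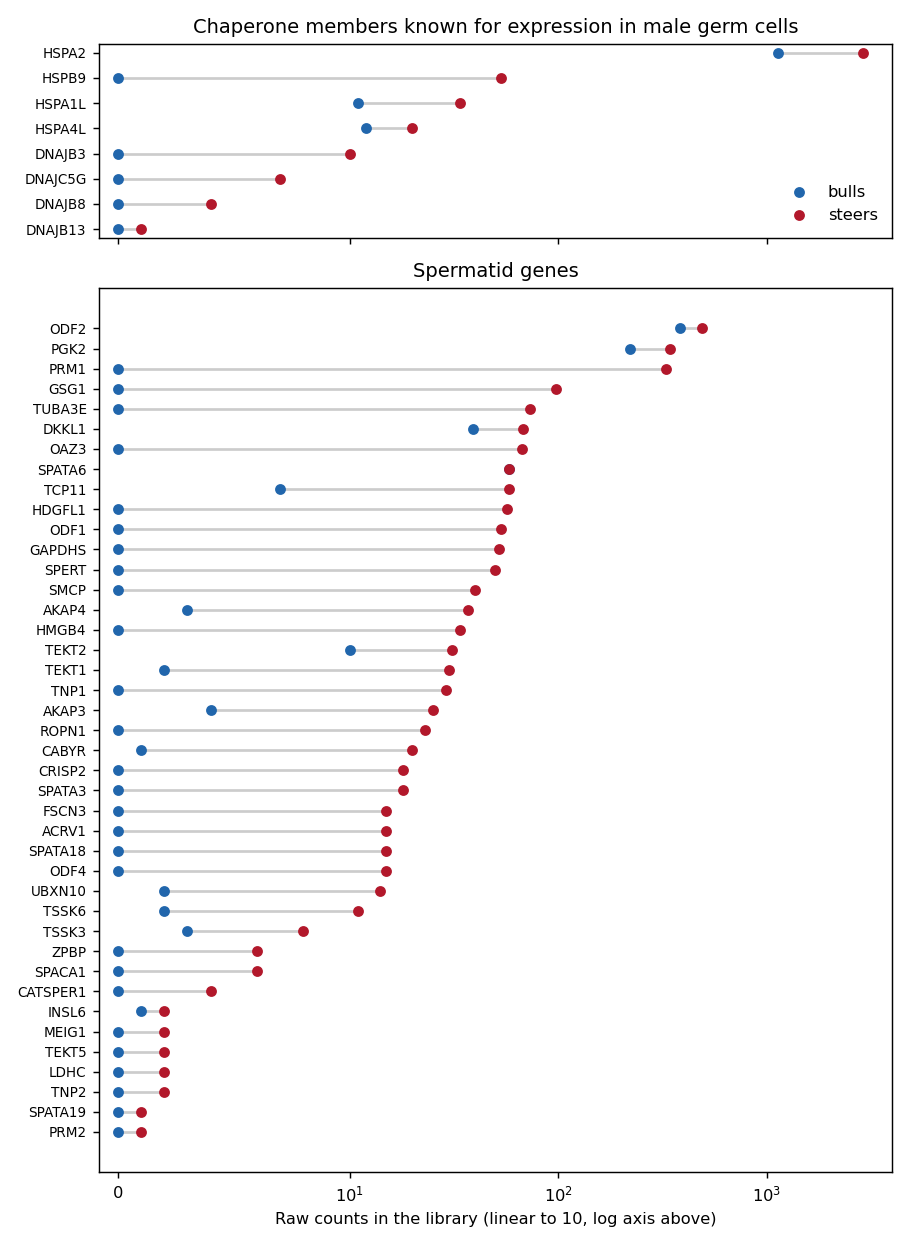
Raw counts in the bull library (blue) and the steer library (red) for the chaperone members known for expression in male germ cells (upper panel) and for spermatid genes (lower panel), on an axis that is linear to 10 and logarithmic above; genes at 0 in both are left out. HSPB9 (53 and 0 counts) and PRM1 (328 and 0) have counts in steers alone, and HSPA2 has 2895 in steers and 1125 in bulls.

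Among the 65 members with a count, 7 were called higher in steers and 1 lower, or 12.3%, where 13.1% of all genes were called (4.65% higher and 8.45% lower). By direction, 10.8% were called higher and 1.54% lower. Those called higher were HSPA2, HSPA1L, HSPB3, HSPB9, DNAJB3, DNAJC5G and DNAJC27, and the member called lower was DNAJC6. The call on DNAJC5G rests on how a two-sided p is formed, with an adjusted p of 0.042 from scipy's exact binomial test and 0.054 when the smaller tail is doubled. Of the 7 called higher, 5 (HSPA2, HSPA1L, HSPB9, DNAJB3 and DNAJC5G) are known for expression in male germ cells, though HSPA2 is also found widely in other tissues. Without the members on that list, which was written after the counts were seen, 2 of 57 (3.51%) were called higher, HSPB3 and DNAJC27, and 1 lower.

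Most heat shock proteins had somewhat higher scaled counts in steers, by less than 2-fold. With size factors, the interval lay above 0 for 19 of the 25 HSP members (76.0%) and below 0 for 3, where 23.0% of all genes lay above and 21.0% below. For the DNAJ members it lay above 0 for 12 of the 40 with a count (30.0%), below 0 for 4, and held 0 for 24. With at least 20 counts, the median log2 ratio was 0.47 over 24 HSP members, 0.15 over 35 DNAJ members and 0.02 over all genes, and with total-count scaling these medians were 0.23, -0.09 and -0.22. Without the members known for expression in male germ cells, the interval lay above 0 for 16 of 21 HSP members (76.2%) and 10 of 36 DNAJ members (27.8%), and the medians were 0.44 and 0.15. The sign differed between the scalings for 2 HSP members, HSPA8 and HSP90AB1, and for 14 DNAJ members. With total counts the shares above 0, of members and of all genes, would be smaller. That scaling takes HSPE1 from 0.24 to 0.00. The drop exceeds the lower limits of HSPE1 (0.07), HSPA8 (0.12), HSP90AB1 (0.13), HSPA13 (0.15), HSPD1 (0.19) and HSPA12A (0.19).

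Counts also bear on these shares, since 52.2% of all genes with at least 1000 counts had an interval above 0. All members together made up 0.637% of the steer library and 0.554% of the bull library. The HSP members held 69962 and 45399 counts, with a log2 ratio of the sums of 0.50, and the DNAJ members held 10775 and 9224, with 0.10. The same 5 genes, HSP90AB1, HSPA1A, HSP90AA1, HSPB1 and HSPA8, held 62.4% of the members' counts in each library.

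**Figure D2:**
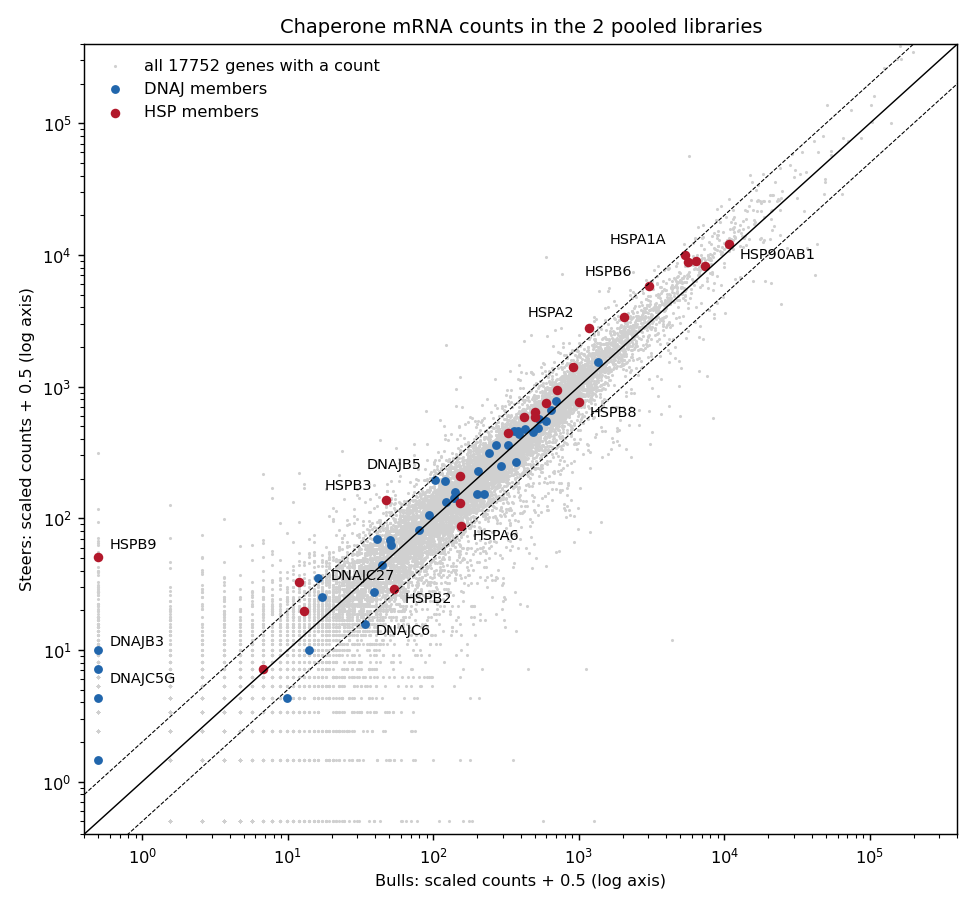
Scaled counts plus 0.5 of each gene in the bull library (x) and the steer library (y), both on log axes, with HSP members in red, DNAJ members in blue and all genes in grey; the solid line marks equal values and the dashed lines 2-fold. HSPA2 and HSPB3 lie above the upper dashed line, HSPA1A (log2 ratio 0.89) lies just inside it, and HSPB9 stands at 0 counts in bulls.

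Cytosolic HSP70 proteins did not move as a block. HSPA1A, the stress-inducible HSP70, had 10380 steer and 5144 bull counts, a log2 ratio of 0.89 (interval 0.84 to 0.94) that misses 2-fold. HSPA8, the constitutive HSP70 that most cells hold, had 8656 and 7082, a log2 ratio of 0.17 with size factors and -0.07 with total counts. The ratio of HSPA1A to HSPA8 counts, which needs no scaling, was 1.20 in steers and 0.726 in bulls, 1.65 times as high in steers (interval 1.58 to 1.73). It is 1 of 11 such ratios of gene pairs that were computed. HSPA1A lies beside HSPA1L in RefSeq, whose table gives HSPA1B as an older name of HSPA1A. How reads of such near-identical copies were shared is not stated, so the split among them is uncertain.

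HSPA2, an HSP70 needed in male meiosis, was called higher with 2895 counts in the steer library and 1125 in the bull library, a log2 ratio of 1.24 (interval 1.14 to 1.34). HSPA1L, whose main site is the testis, was called higher from 34 and 11 counts, with a log2 ratio of 1.47 (interval 0.49 to 2.64). HSPA6 lay the other way, with 91 counts in steers against 149 in bulls and a log2 ratio of -0.83 (interval -1.23 to -0.45). It is known as an HSP70 made almost only under stress, and its direction was opposite to that of HSPA1A.

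The nucleotide exchange factors of the HSP110 type had ratios near each other. HSPA4 had 609 steer and 400 bull counts, a log2 ratio of 0.48 (interval 0.30 to 0.67). HSPH1 had 465 and 310, a log2 ratio of 0.46 (interval 0.25 to 0.67). For HSPA4L, with 20 and 12 counts, the interval of -0.49 to 1.78 held 0.

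Among the less typical HSP70 relatives, HSPA12A had 670 and 479 counts with a log2 ratio of 0.36. HSPA12B, known from endothelial cells, had 983 and 677 counts with 0.42 (interval 0.27 to 0.56), beside 11 endothelial markers with a median of -0.09. HSPA13, bound to microsomes, had 218 and 146 counts with 0.45. HSPA14, which works at the ribosome, had 137 and 146 counts and an interval of -0.56 to 0.13. Its ribosomal J-protein partner DNAJC2 had 72 and 39 counts, with a log2 ratio of 0.76 (interval 0.18 to 1.36).

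**Figure D3:**
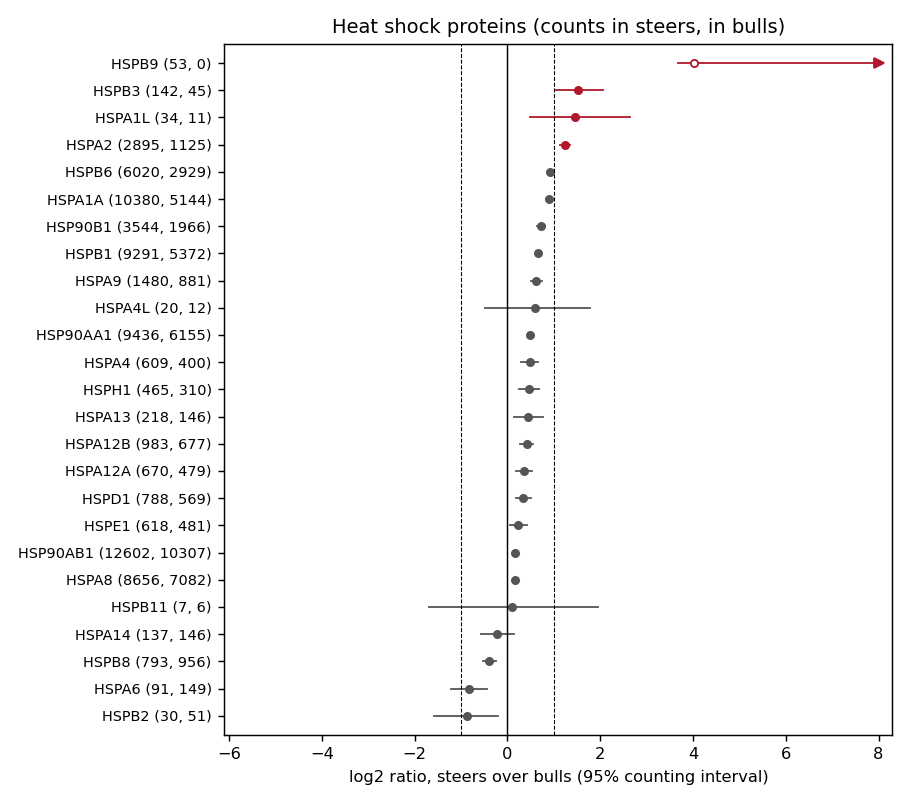
Log2 ratio of steers over bulls for the 25 heat shock proteins with its 95% counting interval, with the raw counts in steers and bulls beside each symbol; red marks a 2-fold call, dashed lines mark 2-fold, and the open point of HSPB9 is the bound from 3 counts in bulls. HSPB9, HSPB3, HSPA1L and HSPA2 lead the order, and HSPB2 (-0.88), HSPA6 (-0.83) and HSPB8 (-0.39) are the 3 with an interval below 0.

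The HSP90 proteins held 25582 counts in the steer library and 18428 in the bull library, and none was called. HSP90AA1, the inducible cytosolic form, had 9436 and 6155 counts with a log2 ratio of 0.49 (interval 0.45 to 0.54). HSP90AB1, the constitutive form, had 12602 and 10307 with 0.17, and -0.07 with total counts. The ratio of HSP90AA1 to HSP90AB1 was 0.749 in steers and 0.597 in bulls, 1.25 times as high in steers (interval 1.20 to 1.31). As for HSPA1A and HSPA8, the inducible form of the pair had the larger ratio. Other members known to be induced by stress varied, with log2 ratios of -0.83 for HSPA6, 0.17 for DNAJB1, 0.46 for HSPH1 and 0.67 for HSPB1. The ratio of HSPH1 to HSPA8 was 0.0537 in steers and 0.0438 in bulls, 1.23 times as high in steers (interval 1.06 to 1.43). The ratio of DNAJB1 to DNAJA1 was 4.27 in steers and 5.05 in bulls, 0.846 times as high in steers (interval 0.707 to 1.01). HSP90B1, the HSP90 of the endoplasmic reticulum, had 3544 and 1966 counts with a log2 ratio of 0.73 (interval 0.65 to 0.81).

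In mitochondria, HSPA9 (mortalin), which pulls proteins through the inner membrane, had 1480 counts in steers against 881 in bulls with a log2 ratio of 0.63 (interval 0.50 to 0.75). HSPD1, the chaperonin, had 788 and 569 with 0.35, and its lid HSPE1 had 618 and 481 with 0.24 (0.00 with total counts). The ratio of these neighbours in the genome was 1.28 in steers and 1.18 in bulls, and the interval of the quotient, 0.915 to 1.27, held 1. The 8 mitochondrial members had a median log2 ratio of 0.22, and the 10 of the endoplasmic reticulum had 0.18.

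Small heat shock proteins lay on both sides of 0. HSPB1 (HSP27), a widespread member that binds actin filaments, had 9291 steer and 5372 bull counts with a log2 ratio of 0.67 (interval 0.62 to 0.72). HSPB6 (HSP20), which is abundant in muscle, had 6020 and 2929 with 0.92 (interval 0.85 to 0.98). HSPB3, known mainly from muscle, was called higher with 142 and 45 counts, a log2 ratio of 1.53 (interval 1.04 to 2.05).

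HSPB2, the muscle partner of HSPB3 in one complex, had 30 counts in the steer library and 51 in the bull library with -0.88 (interval -1.59 to -0.21). HSPB8, which works with BAG3 in clearing damaged muscle proteins, had 793 and 956 with -0.39 (interval -0.53 to -0.25). Against HSPB1, HSPB8 stood at 0.0854 in steers and 0.178 in bulls, 0.48 times as high in steers (interval 0.433 to 0.531). Members known from muscle thus lay on both sides, in libraries whose muscle markers had a median of -0.65, with MYH7 at -2.23 and MYH1 at 1.15.

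HSPB9, a small heat shock protein of the testis, had 53 counts in steers against 0 in bulls, where a count of 0 allows up to 0.304 cpm. Against 3 counts in the bull library it was at least 16.2-fold higher, and the interval, which also covers the counting error in steers, began at a log2 ratio of 3.67. It was 1 of 12 genes in the table with at least 50 steer and 0 bull counts, and 12 genes had the reverse. The steer-only genes also held PRM1, GSG1, TUBA3E, OAZ3, HDGFL1, ODF1, GAPDHS and SPERT, all of the spermatid list. That list was written after the counts were seen. HSPB11, a protein of cilia, had only 7 and 6 counts.

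Class A J-domain proteins, the general partners of HSP70, had 4 members with log2 ratios from 0.14 to 0.41. DNAJA1 had 376 counts in the steer library and 259 in the bull library with 0.41 (interval 0.18 to 0.65), and was the 1 of the 4 whose interval did not hold 0. DNAJA3, the mitochondrial form, had 493 and 409 counts with an interval of -0.04 to 0.34.

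In class B, DNAJB1, the stress-inducible partner of HSP70, had 1605 counts in steers against 1307 in bulls with a log2 ratio of 0.17, and -0.07 with total counts. The ratio of DNAJB1 to HSPA1A was 0.155 in steers and 0.254 in bulls, 0.609 times as high in steers (interval 0.561 to 0.66). These partners in the stress response did not keep their proportion. DNAJB5 had 204 and 98 counts with 0.93 (interval 0.58 to 1.30), which was the largest ratio among class B members with at least 20 counts and was not called. DNAJB12, a J protein of the endoplasmic reticulum membrane, had 692 and 622 counts with 0.03 (interval -0.13 to 0.19). For DNAJB14, of the same membrane, 26 and 16 counts gave an interval of -0.37 to 1.57. DNAJB6, the only class B member with a log2 ratio below 0, had 471 and 461 counts with -0.09 (interval -0.28 to 0.1).

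DNAJB3, known from testis, had 10 steer and 0 bull counts, at least 3.06-fold higher against 3 counts, and was called, with an interval that began at 1.04. DNAJC5G, a testis form of the cysteine string proteins, had 7 and 0, at least 2.14-fold higher against 3 counts, but its interval began at 0.41, which is under 2-fold. DNAJB8, also of testis, had 4 and 0 and was not called, and DNAJB13, of the sperm tail, had 1 and 0.

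Class C J-domain proteins, which mostly serve special tasks, were centred near 0, with 4873 and 4448 counts and a log2 ratio of the sums of 0.01. DNAJC27, a small GTPase with a J domain, was called higher with 36 and 15 counts and a log2 ratio of 1.12 (interval 0.24 to 2.12), and it missed the call with total counts at 0.88. DNAJC6 (auxilin), which strips clathrin from vesicles, was called lower with 16 and 32 counts and -1.10 (interval -2.09 to -0.21). Both calls rest on few reads. DNAJC21, known from ribosome assembly, had 201 and 115 counts with 0.68 (interval 0.35 to 1.03).

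Besides DNAJC6, 3 J-domain members had an interval below 0, all of them in class C. DNAJC5 (cysteine string protein), an exocytosis chaperone, had 158 counts in the steer library and 212 in the bull library with -0.54 (interval -0.85 to -0.24). DNAJC13, a regulator of endosomes, had 279 and 352 with -0.46 (interval -0.69 to -0.23). DNAJC4 had 159 and 191 with -0.39 (interval -0.70 to -0.08). GAK, which like DNAJC6 strips clathrin but has no DNAJ symbol, had 970 and 898 with -0.01 (interval -0.14 to 0.12), and was named after its value was seen.

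The class C members with the most counts had smaller ratios. DNAJC14 had 810 and 666 counts with 0.16 (interval 0.01 to 0.31), and DNAJC11, of the mitochondrial membranes, had 593 and 514 with 0.08. DNAJC18 had 574 and 570 with -0.11, and DNAJC8, of the splicing machinery, had 507 and 506 with -0.12, with intervals that held 0. DNAJC3, an inhibitor of the kinase PERK in the endoplasmic reticulum, had 480 and 343 with 0.36 (interval 0.16 to 0.57), and 0.12 with total counts. For DNAJC12 (28 and 37) and DNAJC19 (10 and 13), a motor part of mitochondrial import, the intervals were -1.29 to 0.22 and -1.85 to 0.80.

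**Figure D4:**
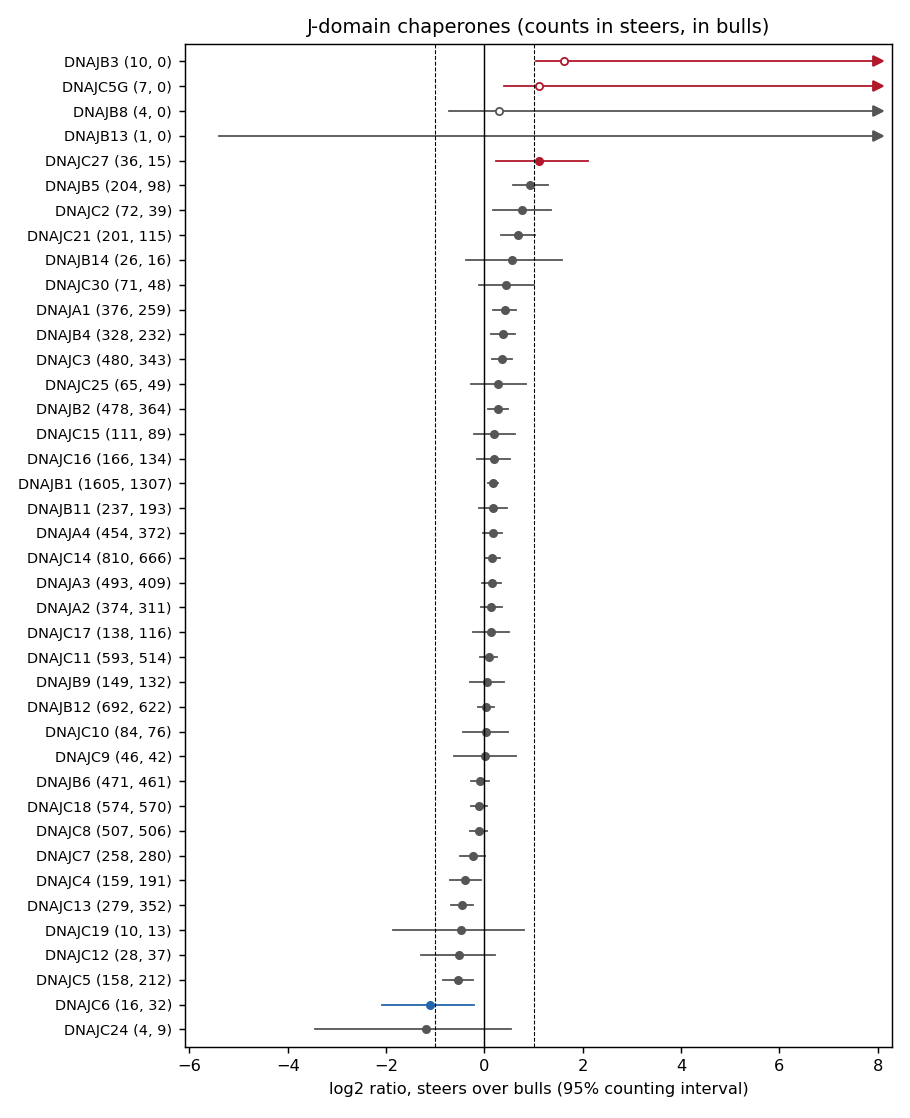
Log2 ratio of steers over bulls for the 40 J-domain members with a count, with its 95% counting interval and the raw counts in steers and bulls beside each symbol; red and blue mark 2-fold calls, dashed lines mark 2-fold, and open points are bounds from 3 counts in bulls. Beyond the members with 0 counts in bulls, DNAJC27 (1.12) stands highest, DNAJC6 (-1.10) is called lower, and 24 intervals hold 0.

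At a threshold of 1.5-fold, 9 of the 25 HSP members (36.0%) were called higher and 2 lower, HSPA6 and HSPB2, where 9.66% of all genes were called higher and 12.7% lower. Among the DNAJ members 6 were called higher (15.0%) and 1 lower. Without the members known for expression in male germ cells, 6 of 21 HSP members (28.6%) and 4 of 36 DNAJ members (11.1%) were called higher. Of 13 members on a list of HSF1 targets, all had a log2 ratio above 0 with size factors. So had 50.7% of all genes with a count and 64.6% of those with at least 1000 counts, which 8 of the 13 have. With total counts HSPA8, HSP90AB1 and DNAJB1 lay at -0.07. For 12 of the 13 targets (92.3%) the interval lay above 0, against 23.0% of all genes and 52.2% of those with at least 1000 counts. The median was 0.41 and 1 was called 2-fold (HSPA1L), and without HSPA1L and HSPA4L, known from male germ cells, it was 0.38 over 11 members with 0 called. The list does not hold HSPA6 and HSPB8, which are also induced by stress and had log2 ratios of -0.83 and -0.39. Nor does it hold CRYAB (-1.54), which is not a member by its symbol. The count on the list thus depends on which genes it holds. HSF1 itself had 1198 counts in steers against 926 in bulls with 0.25, and 0.01 with total counts. The 4 genes of heat shock factors and their binding protein had a median of 0.30, and 0.06 with total counts, and none was called. HSF4 lay the other way, with 110 and 160 counts and -0.66 (interval -1.03 to -0.30).

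**Figure D5:**
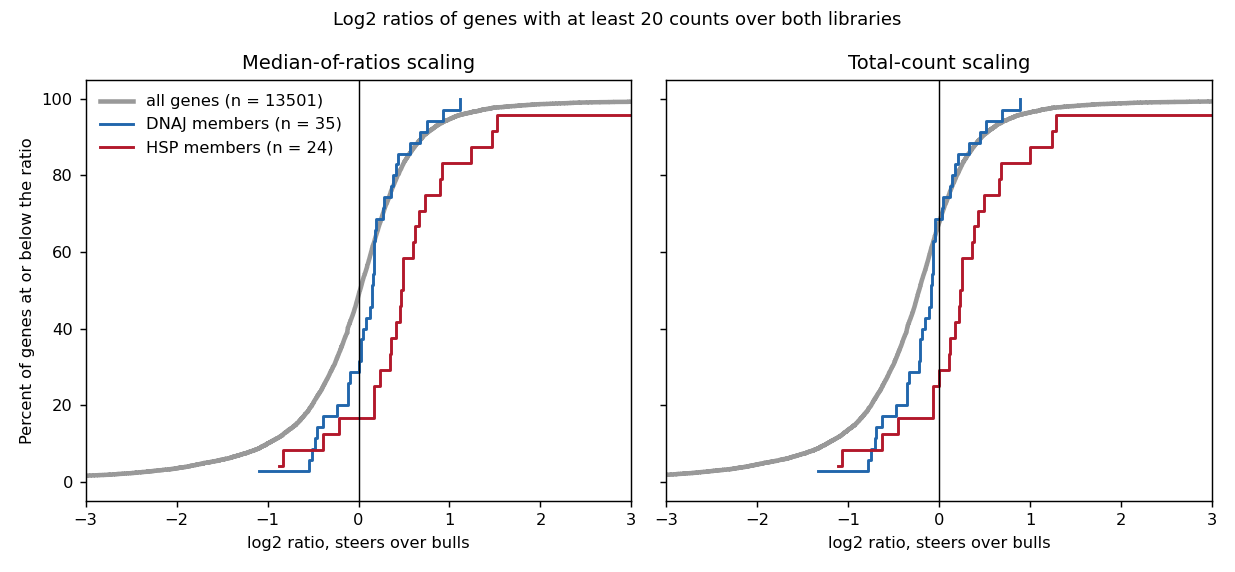
Percent of genes at or below each log2 ratio of steers over bulls, for genes with at least 20 counts over both libraries, with median-of-ratios scaling (left) and total-count scaling (right); red marks 24 HSP members, blue 35 DNAJ members and grey all 13501 genes. The HSP curve lies to the right of all genes in both panels (medians 0.47 and 0.23), while the DNAJ median moves from 0.15 to -0.09; HSPB9 lies beyond the axis.

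Of 16 co-chaperones of HSP70, 2 were called higher and 1 lower (18.8%, against 13.1% of all genes), with a median of 0.23. With total counts neither was called higher (BAG2 0.84 and HYOU1 0.82), and with a prior of 5 counts 0 were called lower. BAG2, which releases clients from HSP70, had 1366 steer and 595 bull counts with a log2 ratio of 1.08 (interval 0.94 to 1.22). HYOU1, the exchange factor of the endoplasmic reticulum, had 1070 and 471 with 1.06, and SIL1, the other exchange factor there, was called lower with 50 and 95 counts and -1.04 (interval -1.57 to -0.54). BAG3 had 1294 and 885 counts, and its ratio to HSPB8 was 1.63 in steers and 0.926 in bulls, 1.76 times as high in steers (interval 1.55 to 2.01).

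Of 15 co-chaperones of HSP90, 0 were called higher and 1 lower (6.67%), with a median of 0.23, and the call was lost with a prior of 5 counts. That was UNC45B, the myosin chaperone of striated muscle, with 65 and 121 counts and -1.01 (interval -1.48 to -0.57). FKBP5, a steroid receptor co-chaperone, had 12536 and 7815 counts with 0.56, and its relative FKBP4 had 2941 and 1828 with 0.56. None of 9 subunits of the TRiC chaperonin (median 0.26), 5 of prefoldin (0.20) or 4 J-domain genes with other names (0.16) was called, and 6, 2 and 1 of them had an interval above 0.

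Of 6 counted genes of other heat shock proteins and crystallins, 2 were called lower and 0 higher, with a median of 0.22. CRYAB, the crystallin of muscle that lies beside HSPB2, had 724 counts in the steer library and 1938 in the bull library with -1.54 (interval -1.67 to -1.42). HSPBAP1, which binds HSPB1, had 29 and 63 with -1.23. SERPINH1 (HSP47), the collagen chaperone, had 10342 and 6185 with 0.62. The 14 fibroblast and matrix genes had a median of 0.97, and a link with SERPINH1 was not tested.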

How the data were processed

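The mRNA of 2 pooled IMF libraries (Ion Proton) was analysed, 1 of steers and 1 of bulls. The deposited values are whole-number counts per gene. According to the methods, adaptors and low-quality reads were removed and reads were mapped to a bovine genome with MapSplice. The submitters' processing notes also name BWA, which the methods give for the small RNA reads, and GRCh37.p13, a human build, whose role is not given in the sources used here. The counting tool, its use of strand and its handling of reads with several matches are not given in the sources used here. The 4 small RNA libraries were not used here.

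Median-of-ratios size factors, the exact binomial test and Clopper-Pearson intervals were computed in numpy 2.4.6 and scipy 1.17.1, with a prior of 0.5 counts, and tested on simulated data. Quotients of gene pairs and their intervals are conditional odds ratios of the raw counts, computed in scipy. The counting error of a gene was set by its own pair of counts, and total counts of 12677375 and 9868415 gave the cpm. Fold bounds for genes at 0 in bulls used 3 counts. RefSeq gene names matched 67 of the 68 members and served for neighbours, with no coordinates. Alternatives were total-count, edgeR 4.0.16 TMM and upper-quartile scaling, a prior of 5, a minimum of 20 counts, a threshold of 1.5-fold and assumed biological coefficients of variation. Doubling the smaller tail and leaving out germ cell members were added after seeing the data. Counts are not per transcript length, so levels were not ranked between genes.

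Named genes were HSP members with at least 20 counts, called DNAJ members, the 8 DNAJ members with the most counts, the 5 with the highest and the 5 with the lowest ratio among those with at least 20 counts, and called genes of the co-chaperone lists. Other named genes are examples chosen with their values seen. The members and lists were chosen with earlier results of these data known, and the spermatid, spermatocyte, Leydig and Sertoli cell lists and the list of members known for expression in male germ cells were written after the counts were seen.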

Additional observations from a re-analysis of the deposited data

How the results depend on the processing

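No paired analysis was possible because each group had 1 mRNA library, and no library could be left out. Of the 7 members called higher and 1 lower, a 1.5-fold threshold gave 15 and 3, an assumed biological coefficient of variation of 0.1 gave 0 lower, 0.2 gave 3 and 0, and 0.4 gave 1 (HSPB9) and 0. A prior of 5 counts gave 0 lower, and total counts gave 3 lower (DNAJC6, HSPA6 and HSPB2). Leaving out members known for expression in male germ cells gave 2 higher. These include HSPA2, which is also found widely in other tissues. DNAJC27 lost its call with total counts, a prior of 5 and all 3 assumed coefficients, DNAJC6 with a prior of 5 and those coefficients, and DNAJC5G with the coefficients and with the doubled smaller tail. For all genes (825 higher, 1500 lower), 1.5-fold gave 1715 higher, a coefficient of 0.2 gave 368 and 762, and 0.4 gave 52 and 93. Total counts gave 583 higher and 2075 lower, 21.9% higher against 35.5%. They moved the members' median from 0.24 to 0.00 and turned the medians of HSP70 co-chaperones (-0.01), HSP90 co-chaperones (-0.01), prefoldin (-0.04), J-domain genes with other names (-0.08) and other heat shock proteins with crystallins (-0.02). TMM and upper-quartile scaling changed no call of the 44 named members.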
